A study of Mus musculus with 6 samples.

Results

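Alternative RNA events were examined in 92 genes of lipid and xenobiotic metabolism in mouse brain. These are the genes whose symbols open with the names of the cytochrome P450, alcohol and aldehyde dehydrogenase, aldo-keto reductase, hydroxysteroid dehydrogenase, glutathione transferase, glucuronosyltransferase, acyl-CoA, elongase, acyltransferase, lipin, patatin-like, choline kinase and phospholipase A2 and C families. The rule reads the symbol and position of an event and no intensity. *Pnpla6* and the events inside the congenic interval on chromosome 19 were left out, which removed 2 events of *Pnpla6* and 1 event of *Fads1*. The 92 genes held 131 events, of 12943 events in the whole table that could be measured in both sets of arrays. All 92 symbols were found in RefSeq on the chromosome the table gives, 2 of them under newer names (*Agpat9* as *Gpat3* and *Akr1a4* as *Akr1a1*).

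Whole brain RNA came from 6 mice of a B6.CAST congenic line, in which a stretch of chromosome 19 around *Nxf1*, the mRNA export factor gene, derives either from C57BL/6J (B6) or from *Mus musculus castaneus* (CAST). 3 mice were homozygous for Nxf1 B6 and 3 for Nxf1 CAST, no treatment is named, and all 6 come from the same backcross to B6. They formed 3 same-sex littermate pairs of opposite genotype: a female pair of 46 days, a female pair of 23 days, and a male pair in which the Nxf1 B6 mouse was 22 and the Nxf1 CAST mouse 23 days old. Each RNA was hybridized to 1 Affymetrix MJAY array, whose probe sets read the exons and splice junctions that belong to either path of an event. The comparison asks whether the *Nxf1* allele alters RNA processing away from the retroviral insertions on which it is known to act. The congenic alleles differ along the whole interval and not only in *Nxf1*, so the gene and its neighbours cannot be told apart in these mice.

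For each event the table gives 1 intensity for the exclusion path and 1 for the inclusion path for set A and the same pair for set B, each pooled over 3 arrays. The shift of an event is the log2 ratio of exclusion over inclusion in set B minus that in set A, so a shift above 0 means relatively more exclusion in set B. The sets are not named by genotype in the table. From its definition of a mutant over wild-type ratio, the order of the letters and the study's methods, set B was likely Nxf1 CAST, and every direction below is given as set B against set A. No value per mouse was at hand, so there is no spread between mice, no test was made and no p-value stands behind any shift here, and an absolute shift over 0.5 is used here only as a mark of size. With so few arrays the precision of all values is limited.

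Enzymes of xenobiotic metabolism work in stages. Cytochrome P450 enzymes, dehydrogenases and reductases first oxidise or reduce a foreign or endogenous compound such as a steroid, and transferases then attach glutathione or glucuronic acid. Fatty acids are activated to acyl-CoA before they can be elongated, burned in mitochondria and peroxisomes or built into glycerolipids, and lipases and phospholipases release them and produce second messengers. Brain is rich in long polyunsaturated fatty acids and in phospholipase C signalling, while many of the P450 and transferase genes are best known from liver, gut or steroid-producing glands.

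For a pair of alternative-start events the RefSeq sequence just before the annotated start is shown, because these events concern where the RNA begins and differed in direction: *Pla2g12a*, whose shift lay above 0, and *Elovl6*, whose shift lay below 0. Each window is the 250 bases upstream of the first transcribed base in GRCm38.p6, on the plus strand, at chr3:129880934-129881183 for *Pla2g12a* and chr3:129532136-129532385 for *Elovl6*. Capitals mark CpG dinucleotides, of which the windows hold 4 and 11 (observed over expected 0.248 and 0.561), against a median of 6 (0.374) over 32851 mouse gene windows. On neither strand does a window hold the GC box letters GGGCGG, which 32.7% of all windows hold, the TATA box letters TATAAA, which 12.4% hold, or the E-box letters CACGTG, which 6.02% hold. The build of the table's positions is not given in the sources used here, so the array's start paths were not placed on these windows.
Pla2g12a: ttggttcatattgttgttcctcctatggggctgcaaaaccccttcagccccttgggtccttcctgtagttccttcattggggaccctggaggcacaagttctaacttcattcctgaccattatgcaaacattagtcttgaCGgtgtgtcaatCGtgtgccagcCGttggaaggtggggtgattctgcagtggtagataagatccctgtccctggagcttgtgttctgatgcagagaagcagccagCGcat
Elovl6: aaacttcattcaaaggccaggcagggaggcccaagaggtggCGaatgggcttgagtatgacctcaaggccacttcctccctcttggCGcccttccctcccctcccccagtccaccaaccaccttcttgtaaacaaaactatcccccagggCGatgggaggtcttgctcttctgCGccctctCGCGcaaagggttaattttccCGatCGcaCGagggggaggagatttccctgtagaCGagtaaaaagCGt

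Across the 131 events most shifts were small. The median absolute shift was 0.17, beside 0.18 over all 12943 events, and the 90th percentile was 0.43 beside 0.45. An absolute shift over 0.5 was found in 9 member events (6.87%), close to the 7.34% of all events. Of the 126 member events with a defined exclusion path, 6 lay above 0.5 and 3 below -0.5, where the shares over all such events were 4.52% and 2.72%. Shifts lay above 0 in 72 of the 126 (57.1%), beside 55.4% over all events. The size and the balance of the shifts thus lay near those of the whole array, and the values below describe single events within that background.

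**Figure D1:**
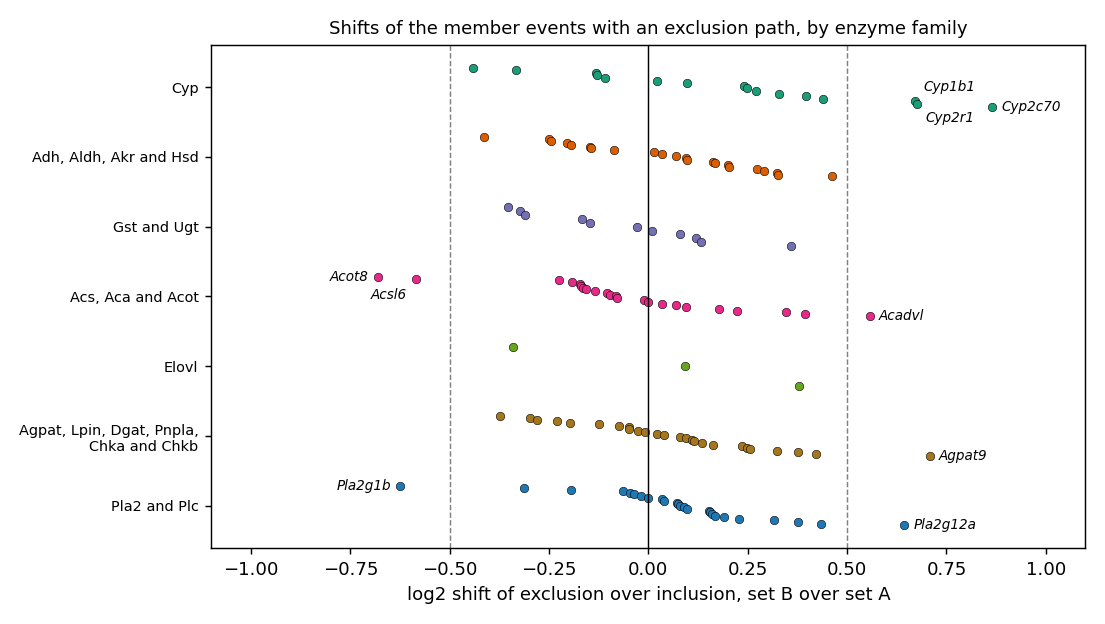
Each point is the log2 shift of 1 of the 126 member events with an exclusion path (x axis), set out by enzyme family (y axis, with points spread within a row for legibility); dashed lines mark -0.5 and 0.5. The 9 events outside the lines are named, 6 on the right and 3 on the left, and the dehydrogenase, transferase and elongase rows hold none.

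The 9 events outside 0.5 came from 9 genes, and in 7 of them the exclusion path differed more between the sets than the inclusion path. The same count was not made over all events past 0.5, so whether 7 of 9 is usual on this array was not tested. Largest of the 9 was a cassette exon of *Cyp2c70*, a P450 that hydroxylates bile acids in mouse liver, at chr19:40242093-40261605 in the table's coordinates. Exclusion read 325 in set A and 317 in set B, inclusion read 112 and 60, and the resulting shift was 0.86, which ranked 77 among all events by absolute size. The difference in *Cyp2c70* lay almost wholly in the inclusion path, which in set B was near the dim end of an array where no listed intensity of that set is below 48. The gene lies on the congenic chromosome but outside the interval as taken here. The study mapped chromosome 19 in its congenic mice. It drew stretches homozygous for CAST, stretches between markers or heterozygous in some samples, and stretches homozygous for B6. Which of these holds *Cyp2c70* was not examined here. The other 3 member genes on chromosome 19 were *Chka* (the largest absolute shift 0.43), *Aldh18a1* (a shift of 0.29) and *Gsto2* (a shift of -0.15), none past 0.5.

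*Agpat9*, the glycerol-3-phosphate acyltransferase now called *Gpat3*, had the next largest shift, at a cassette exon on chromosome 5 (chr5:101275380-101275673) whose event name gives it 86 bases. Exclusion read 100 in set A and 154 in set B, inclusion 138 and 130, and the shift was 0.71. In contrast to *Cyp2c70*, the difference was mostly in the exclusion path. A retained intron of 95 bases, listed within the span of the exon event, shifted by 0.16, and the alternative start of the gene by -0.03, so the neighbouring events did not share the size of the exon's shift.

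*Acot8*, a peroxisomal acyl-CoA thioesterase, had the largest shift toward inclusion. At its cassette exon (137 bases by name, chr2:164625425-164630210) exclusion read 316 in set A and 219 in set B while inclusion read 252 and 280, a shift of -0.68. No intensity of *Acot8* was below 219, the highest such minimum among the 9. The exclusion path again carried most of the difference, with a log2 change of -0.53 against 0.15 for inclusion.

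Of the other P450 genes, *Cyp2r1*, the vitamin D 25-hydroxylase, shifted by 0.68 at an alternative 3' splice site on chromosome 7, where exclusion read 82 in set A and 115 in set B while inclusion read 164 and 144. *Cyp1b1*, which oxidises oestrogens and polycyclic hydrocarbons, shifted by 0.67 at a retained intron on chromosome 17. Its spliced, exclusion path read 141 in set A and 209 in set B, while the intron-containing path read 117 and 109. In both genes the exclusion path was brighter in set B than in set A, and the inclusion path was slightly dimmer.

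A pair of secreted phospholipases A2, enzymes that release fatty acids from membrane phospholipids, had shifts of opposite sign. The events differ in type, a start and an end, so the signs do not describe the same choice. The alternative start of *Pla2g12a* on chromosome 3 read 91 in set A and 126 in set B on the exclusion path and 360 and 319 on the inclusion path, a shift of 0.64. The alternative end of *Pla2g1b*, the pancreatic-type enzyme, on chromosome 5 read 121 and 132 on the exclusion path and 63 and 106 on the inclusion path, a shift of -0.63. In *Pla2g1b* most of the difference lay in the inclusion path, which was dim in set A.

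The last of the 9 came from the acyl-CoA genes. *Acsl6*, the long-chain acyl-CoA synthetase of brain that supplies docosahexaenoic acid to phospholipids, shifted by -0.59 at a complex event on chromosome 11, where exclusion read 151 in set A and 121 in set B while inclusion read 143 and 172. *Acadvl*, the very long-chain acyl-CoA dehydrogenase that opens mitochondrial beta-oxidation, shifted by 0.56 at a cassette exon of 66 bases on chromosome 11, where exclusion read 53 in set A and 79 in set B while inclusion read 312 and 316. The exclusion path of *Acadvl* held the dimmest value among the 9, and the inclusion path of that gene was nearly level. *Acadvl* and *Acsl6* were the events nearest above the mark in absolute size, and nearest below it were an alternative start of *Hsd11b1* at 0.46 and a cassette exon of *Cyp11a1* at -0.44.

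**Figure D2:**
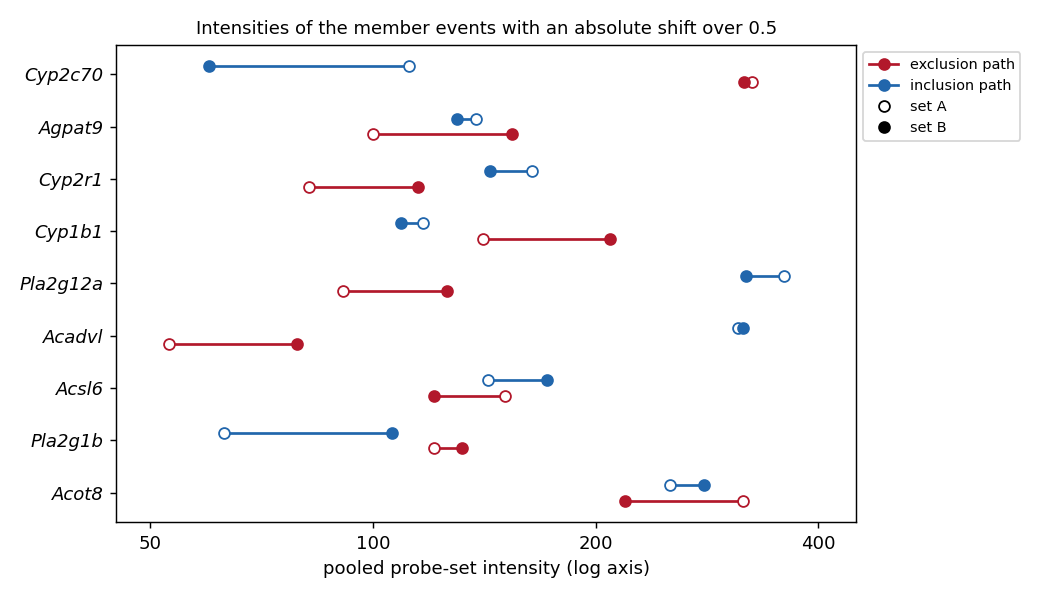
Pooled intensities on a log axis (x) of the exclusion path (red) and the inclusion path (blue) in set A (open circles) and set B (filled circles) for the 9 member events with an absolute shift over 0.5 (y). Each circle is 1 value pooled over 3 arrays, with no error bar; in *Cyp2c70* and *Pla2g1b* the blue line is the long one, and in the other 7 events the red line is.

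The events past 0.5 were set against brightness. 45 of the 131 member events (34.4%) lay in the dimmest quintile of all events by mean intensity, and 7 of the 9 events past 0.5 were among them, or 15.6% of that quintile beside 8.81% of all its events. The next 2 quintiles, with 21 member events each, held 1 past 0.5 each, beside 8.96% and 7.61% of all their events, and the brightest 2 quintiles, with 20 and 24 member events, held none, beside 6.84% and 4.48%. At these numbers the counts of 1 and 0 are near the shares over all events, which were not higher in the dimmest quintile than in the next. Counted by the dimmest of their intensities, 5 of the 9 fell below 100 in at least 1 path and set, as did 34 of all 131 (26.0%, beside 21.3% over all events). When 50 units were added to every intensity, which damps changes of dim probe sets most, the shifts of *Cyp2c70* (0.53), *Agpat9* (0.51), *Acot8* (-0.57) and *Cyp1b1* (0.51) stayed past 0.5 and those of the other 5 did not, the lowest being *Acadvl* at 0.31. Whether a probe set was above array background is not given in the sources used here, and the part of background signal in these shifts was not tested.

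**Figure D3:**
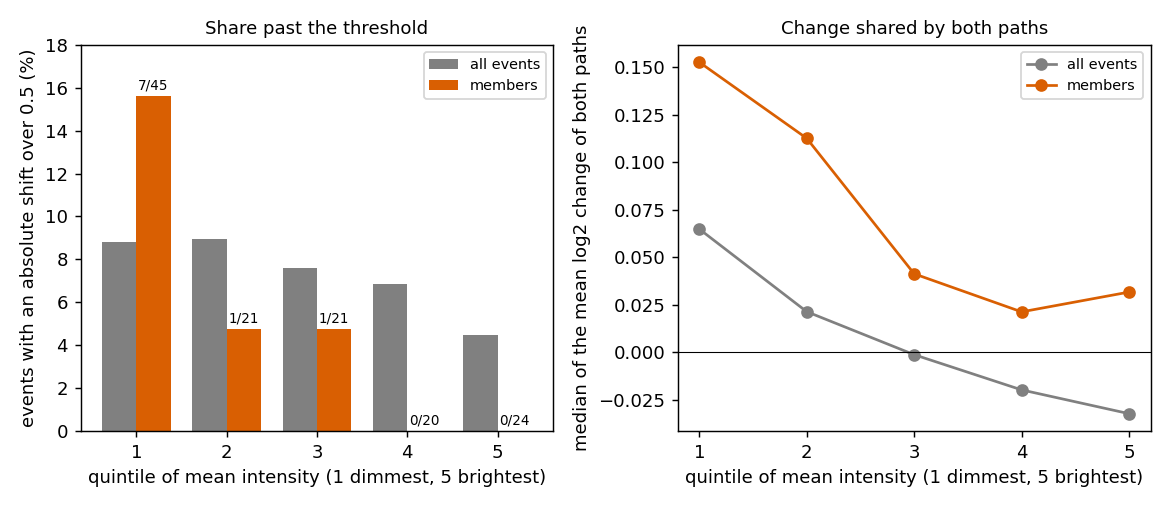
Left, the share of events (%, y) with an absolute shift over 0.5 in each quintile of mean intensity (x), for all events (grey) and for member events (orange, with counts above the bars). Right, the median of the mean log2 change of both paths in the same quintiles, which for the member events ran from 0.15 in the dimmest quintile to 0.03 in the brightest.

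The cytochrome P450 genes had a median absolute shift of 0.30 over 16 events in 14 genes, the highest median among the families apart from the 3 elongase events (0.34), beside 0.18 over all events. 3 of the 16 events were past 0.5 (18.8%, beside 7.34%). Their median lowest intensity was 92.5, beside 153 over all member events and 170 over the whole table, and their median mean intensity was 194, beside 252 and 309. *Cyp27a1*, the sterol 27-hydroxylase that starts bile acid and oxysterol formation from cholesterol outside the classical route, had a cassette exon of 191 bases with exclusion at 73 in set A and 93 in set B, inclusion at 441 and 427, and a shift of 0.40. *Cyp11a1*, the side-chain cleavage enzyme of steroid synthesis, read 74 and 60 on exclusion and 110 and 121 on inclusion, the shift of -0.44 given above. *Cyp4f13*, of the fatty acid omega-hydroxylase group, was the P450 gene with most events, and its 3 events shifted by -0.33, 0.10 and 0.24 and did not move one way. The *Cyp2d* and *Cyp4f* genes are close copies of one another, and whether their probe sets distinguish them is not given, so the values of *Cyp2d10* (0.44), *Cyp2d13* (0.27), *Cyp2d22* (0.25), *Cyp4f13* and *Cyp4f16* (0.33) are uncertain as values of single genes. RefSeq lists *Cyp2d13* as a transcribed pseudogene.

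Alcohol, aldehyde, carbonyl and steroid dehydrogenases and reductases held 22 events in 17 genes, none past 0.5 (7.34% in the whole table), with a median absolute shift of 0.20. The largest was the start of *Hsd11b1*, which regenerates active glucocorticoid in brain and liver. Exclusion of this start read 70 in set A and 79 in set B, inclusion read 437 and 358, and a further start event of the gene shifted by only 0.10. *Hsd11b2*, which inactivates glucocorticoid, shifted by 0.20 at an alternative 3' splice site. *Aldh16a1*, with most events in this family, shifted by -0.21, -0.15 and 0.07.

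Conjugation genes held 12 events in 11 genes, again none past 0.5 (7.34% in the whole table), with a median absolute shift of 0.16. The largest belonged to *Ugt1a1*, the glucuronosyltransferase that clears bilirubin, whose locus joins alternative first exons to a shared body. Its event is listed with 8 paths measured against a common reference path at 97 in set A and 99 in set B. Shifts of these paths ran from -0.26 to 0.36. The extreme path read 81 in set A and 106 in set B, so this value too came from dim probe sets. *Gstcd*, which shares the transferase name through a domain, was the gene with most events here, and its start and end events shifted by -0.03 and 0.08.

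Acyl-CoA synthetases, dehydrogenases and thioesterases held 26 events in 16 genes, with 3 past 0.5 (11.5%, beside 7.34% of all events) and a median absolute shift of 0.17. This family leaned the other way from the array as a whole, with 8 shifts above 0 and 15 below (34.8% above, beside 55.4%). The direction was shared by all 3 signed events of *Acsl6*: beside the complex event at -0.59, its alternative end shifted by -0.17 (exclusion 215 and 192, inclusion 1661 and 1663) and a further complex event by -0.10 (exclusion 610 and 561, inclusion 681 and 673). The remaining event of *Acsl6*, complex and without an exclusion path, is listed at the same place as the event at -0.59 (chr11:54117325-54133653). It read 1407 in set A and 1363 in set B on its reference path, and the shifts of its other paths ran from -0.06 to 0.02.

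Chain elongation was represented by *Elovl1* and *Elovl6* with 3 events, and *Elovl4* was not listed. *Elovl6*, which lengthens palmitate to stearate, had a start event where exclusion read 1370 in set A and 1348 in set B while inclusion read 420 and 523, a shift of -0.34. Its cassette exon, with inclusion at 3701 and 3443, shifted by 0.09. *Elovl1*, which makes saturated very long chains, shifted by 0.38 at its start, with exclusion at 190 and 223 and inclusion at 881 and 795. These start events were bright compared with most of those past 0.5, and both stayed inside the mark.

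Glycerolipid synthesis and hydrolysis held 27 events in 14 genes, with *Agpat9* the only one past 0.5 (3.70%, beside 7.34%) and a median absolute shift of 0.16. *Lpin3*, a phosphatidate phosphatase, shifted by -0.28, -0.12 and -0.05 at 3 events. *Pnpla7*, a lysophospholipase, shifted by 0.32, 0.25 and 0.10 at 3 events. *Pnpla2*, the triglyceride lipase of fat droplets, shifted by 0.12 and -0.07 at a pair of cassette exons, with exclusion at 384 in set A and 402 in set B at the first and 1078 and 1220 at the second. The shifts of each of the first 2 genes had one sign, while those of *Pnpla2* straddled 0.

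Phospholipases A2 and C held 25 events in 18 genes, with 2 past 0.5 (8.0%, beside 7.34%) and a median absolute shift of 0.15. The phospholipases C beta that answer G protein-coupled receptors in neurons had small shifts: *Plcb1* shifted by 0.23 at its cassette exon of 118 bases (exclusion 583 and 628, inclusion 792 and 729), and *Plcb4* by 0.17, 0.10 and -0.05 at its 3 cassette exons. At the first of these the exclusion path of *Plcb4* was among the brightest member values, with 4324 in set A and 4944 in set B. *Pla2g6*, the calcium-independent enzyme whose loss causes infantile neuroaxonal dystrophy, shifted by -0.31 at its start and -0.19 at a cassette exon. *Plcd4*, with 4 events, held the smallest shift of all members, 0.0005 in absolute size at a complex event (exclusion 549 and 558, inclusion 179 and 182), as well as a shift of 0.32 at a cassette exon with a dim exclusion path of 59 and 76.

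**Figure D4:**
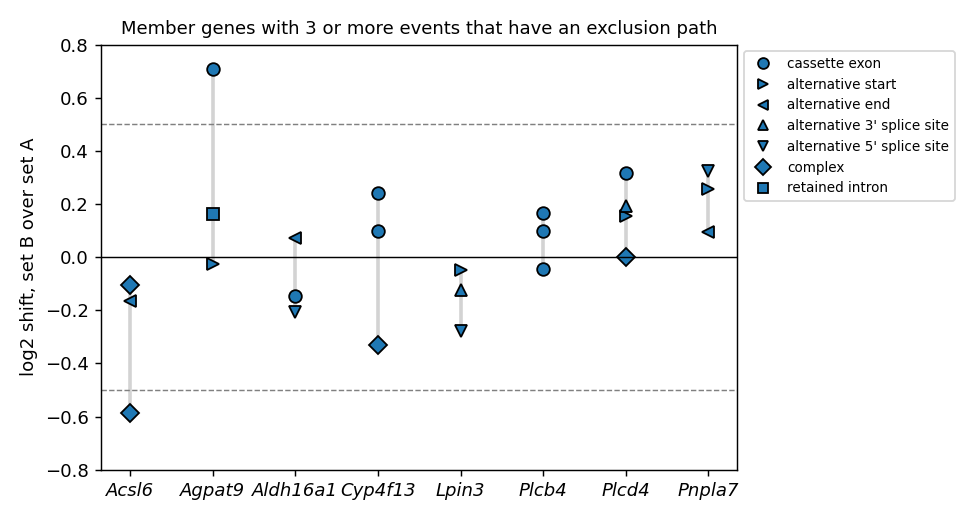
Log2 shifts (y) of the 8 member genes with at least 3 events that have an exclusion path (x), with 1 marker for each event by type; dashed lines mark -0.5 and 0.5, and grey lines span the lowest to the highest shift of a gene. *Acsl6* and *Lpin3* lie wholly below 0 and *Pnpla7* wholly above, while the other 5 genes have events on both sides.

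Genes with several events were compared within themselves. 63 of the 92 genes had 1 event, 21 had 2, 6 had 3 and 2 had 4, and of the 27 genes with more than 1 signed event, 18 had shifts on both sides of 0 (66.7%, beside 60.2% of 3016 such genes in the whole table). With exactly 2 signed events the shares were 13 of 19 genes (68.4%) and 47.0% of 1871 genes. Some of these shifts were close to 0, as in *Plcd4* and *Agpat9*. By type, member events past 0.5 included 4 of 43 cassette exons (9.30%, beside 8.57% of all cassette exons), 1 of 22 alternative starts (beside 6.32% of all starts), 1 of 17 alternative ends (2.78%), 1 of 15 alternative 3' splice sites (9.10%), 1 of 8 retained introns (9.86%) and 1 of 10 complex events with an exclusion path (8.39%). Of the 10 complex events with an exclusion path 9 had shifts below 0, while 55.3% of all such events lay above. Among these 9, *Plcd4* (-0.0005) and *Agpat3* (-0.008) were close to 0, and *Acsl6* gave both -0.59 and -0.10. Of the 43 member cassette exons, 18 have a length in the event name that is a multiple of 3. The same count was not made over all cassette exons, so whether 18 of 43 is usual on this array was not tested. Whether the member exons lie in coding sequence was not tested either. The number in the event name was read as a length because it fits the listed positions of 93.8% of the retained introns in the table.

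A difference that both paths of an event share bears on the RNA level more than on the choice of path. The mean log2 change of both paths had a median of 0.09 over the member events, beside 0.01 over all events, and lay above 0 in 79 of 126 (62.7%, beside 51.2%). Both paths were higher in set B by over 0.3 in 5 member events, beside 1.83% of all events, and lower by over 0.3 in none of the members, beside 0.900%. Fewer cells of a type and less RNA per cell cannot be told apart in whole brain. The 5 events, named after their values were seen, were an alternative 3' splice site of *Acsm5*, a medium-chain acyl-CoA synthetase (a mean change of 0.43), a complex event of *Agpat3*, a lysophosphatidate acyltransferase (0.40), the start of *Lpin3* (0.39), a cassette exon of *Pla2g3*, a secreted phospholipase A2 (0.39), and a retained intron of *Pla2g4b*, a cytosolic phospholipase A2 (0.37).

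In *Pla2g3* exclusion read 343 in set A and 460 in set B, inclusion read 1148 and 1463, and its shift was only 0.07. In *Lpin3* both paths of all 3 events were higher in set B, with mean changes between 0.35 and 0.39. In *Agpat3* both paths of the complex event were higher in set B (445 against 338 and 274 against 207) whereas the start event read 260 and 242 on exclusion and 460 and 405 on inclusion, a mean change of -0.14, so the 2 events of this gene differed in direction. By family, the mean change lay above 0 in 20 of 26 glycerolipid events, 20 of 25 phospholipase events, 7 of 11 conjugation events, 2 of 3 elongase events, 9 of 16 P450 events, 11 of 22 dehydrogenase events and 10 of 23 acyl-CoA events, beside 51.2% of all events. It also followed brightness, with a median of 0.15 in the dimmest quintile of the members and 0.03 in the brightest, where the same medians over all events were 0.06 and -0.03, and the part of brightness in it was not tested.

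**Figure D5:**
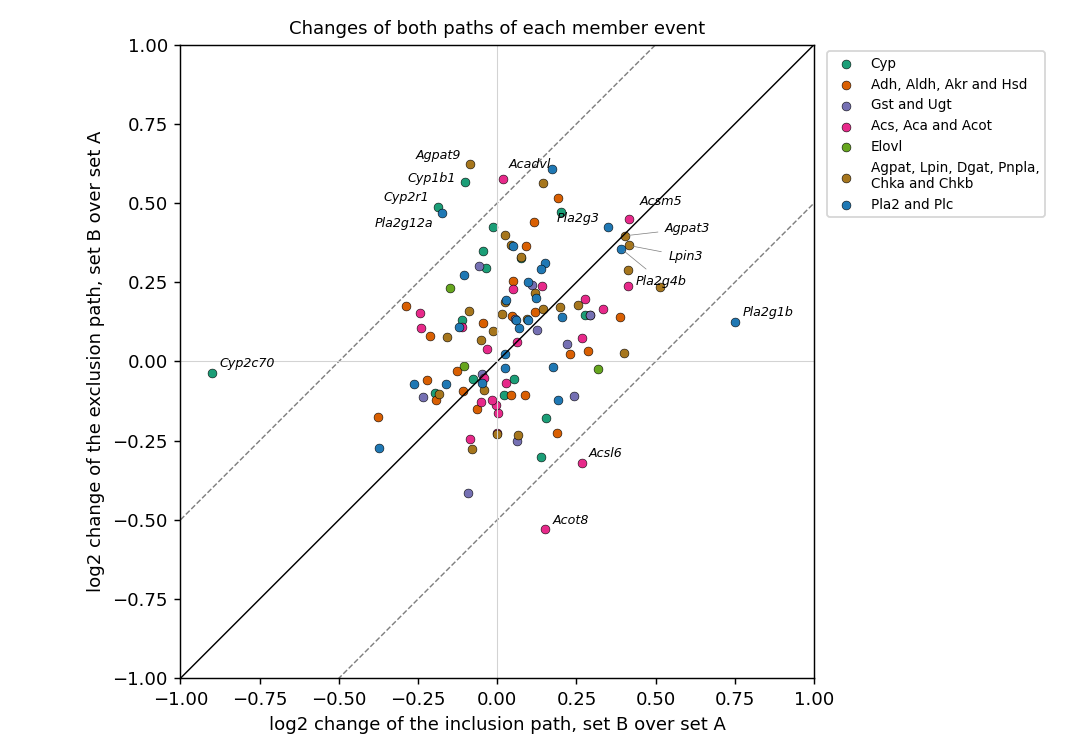
Log2 change from set A to set B of the inclusion path (x) and of the exclusion path (y) for the 126 member events with an exclusion path, coloured by family; the solid line marks equal changes and the dashed lines a shift of -0.5 or 0.5. The 9 events with an absolute shift over 0.5 are named outside the dashed lines, and the 5 named events near the upper part of the solid line have both paths higher in set B by over 0.3.

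*Pla2g4e*, a cytosolic phospholipase A2, is one of the genes in which the study examined an intron that carries an intracisternal A particle, the retrovirus whose effect on splicing Nxf1 CAST modifies. The study measured its correctly spliced RNA with the primers below, shown because they mark the junction of interest. In brain it reported more of this RNA with Nxf1 CAST, and also with its genome-edited *Nxf1* allele. The array held 1 event of the gene, a retained intron of 783 bases at chr2:120012146-120012931, which read 454 in set A and 556 in set B on the spliced path and 141 and 155 on the intron-containing path. The shift was 0.16, close to the median size of all events, and both paths were higher in set B by 0.29 and 0.14 on the log2 scale. Whether this event spans the intron with the insertion was not tested, so its shift cannot be set against the study's result for that junction.
Primer 1: tgtgccctcctcacctttac
Primer 2: cagagggtcacaaagcagtct

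Other genes of the same pathways were listed by function, and their counts are to be read against the 7.34% of all events past 0.5. Of 32 genes of sterol and fatty acid synthesis, 13 were on the array with 16 events, and 1 was past 0.5: a cassette exon of *Mvd*, mevalonate diphosphate decarboxylase, at -0.57 (exclusion 783 and 634, inclusion 271 and 325). Of 30 genes of the carnitine shuttle and beta-oxidation, 16 were present with 26 events and none past 0.5. Of 52 phospholipid and sphingolipid genes, 32 were present with 54 events and 4 past 0.5, of which 3 lay above 0.5 and 1 below -0.5.

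Those 4 were *Plch2*, a phospholipase C eta of neurons, at 1.03 (exclusion 264 and 454, inclusion 180 and 152), *Pgs1*, the phosphatidylglycerophosphate synthase of the cardiolipin route, at 0.81 (exclusion 129 and 211, inclusion 1591 and 1488), *Pld1*, phospholipase D, at 0.67 (exclusion 97 and 147, inclusion 350 and 333), and *Mgll*, which breaks down the endocannabinoid 2-arachidonoylglycerol, at -0.52 (exclusion 403 and 367, inclusion 387 and 504). The shift of *Plch2* was larger than that of any member event. Of 52 xenobiotic genes, 20 were present with 31 events and 3 past 0.5, where 7.34% of all events were. *Mgst1*, the microsomal glutathione transferase, shifted by 0.98 at a cassette exon whose inclusion path read 368 in set A and 215 in set B, *Xdh*, xanthine dehydrogenase, by 0.54, and *Cyb5r2*, a cytochrome b5 reductase, by -0.60.

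The brain label was checked against cell type markers on the same array. Neuron markers were present for 4 of 7 genes, with summed intensities of 39286 in set A and 37762 in set B. Of these *Snap25* was the brightest (12087 and 11162 on its inclusion path). Astrocyte markers were counted for 5 of 6 genes (39578 and 40944), and oligodendrocyte markers for 5 of 7 (56188 and 54663). The remaining astrocyte gene, *Aldh1l1*, is on the array but is a member, and was left out of these sums and medians. Its event read 255 in set A and 245 in set B on exclusion and 416 and 357 on inclusion, a mean change of -0.14. Medians of the mean log2 change of both paths were -0.10 for the neuron list, -0.03 for the astrocyte list and -0.03 for the oligodendrocyte list, beside 0.09 for the enzymes. Microglia and blood markers (2 of 6 genes) summed to 2197 in set A and 2376 in set B, endothelium (2 of 4 genes) to 3389 and 3197, and choroid plexus (1 of 4 genes) to 495 and 463. Their medians of the same measure were 0.14, -0.12 and -0.13, so these short marker lists differed between the sets by as much as the enzymes or more, and the part of cell makeup in the enzymes' value was not tested. An alternative 3' splice site of *Csf1r*, the receptor that marks microglia, shifted by -1.13, the only marker event past 0.5. No listed event belonged to the 7 liver markers, so a trace of liver RNA, in which many of these enzymes are abundant, was not tested.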

How the data were processed

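RNA from the brains of 3 Nxf1 CAST mice and their 3 Nxf1 B6 littermates was hybridized to 6 MJAY arrays, 1 per mouse. The authors' deposited table lists whole-number intensities of the exclusion and inclusion probe sets, pooled over the arrays of a set, together with separation scores (log2 values) and q-values for a paired and a standard comparison. The scores and q-values are the authors' own comparisons and were not used. Per the submitters' processing notes Affymetrix Power Tools was used, and the file header names the omniviewer software. Normalization, background correction and genome build are not given in the sources used here.

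Paths were joined into events by name and place, and an event took its path of largest absolute shift, with the sign of the exclusion path. In the table, 56 paths without a partner path at their place were set aside, 2 of them listed as *Cyp2d10* and *Cyp4f13* at the place of another gene. Genes are named by rule: member events past 0.5, the genes with most events and with the largest shift in each family, 12 brain enzymes where listed, the smallest shift, the neighbours of 0.5, and pathway genes past 0.5. Some close relatives and multi-event genes were added after their values were seen. Members, lists and rules were chosen with earlier results of these data known. The calculation was tested on simulated data. Python 3.11.15, numpy 2.4.6, pandas 2.3.3 and matplotlib 3.10.9 were used.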

Additional observations from a re-analysis of the deposited data

How the results depend on the processing

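No paired analysis was possible because the intensities used here are pooled over the arrays of a set, and for the same reason no mouse could be left out in turn. The authors' own paired scores were not used. The count of 9 member events past 0.5 changed with the mark itself, to 38 of 131 at 0.3 (26.0% of all events) and to 0 at 1 (0.224% of all events). It fell to 4 with 50 added to every intensity, where 3.18% of all events lay past 0.5, and to 4 of 98 events when paths with an intensity under 100 were left out, where the share of all events was 6.48%. In both cases dim probe sets are what the alternative damps or removes. The median absolute shift of 0.17 moved to 0.15 with 50 added (0.14 over all events) and to 0.23 when each gene was taken by its largest event (0.23 over all genes). The other 9 of 13 alternatives for the count and 8 of 10 for the median moved little, among them centring each column, leaving out complex events, and restoring the lone paths set aside, the last chosen after seeing the data. The columns of the standard comparison are counted there but test nothing, since they list the same intensities in all 26304 paths given in both. Taking the mean over paths or the exclusion path alone is also counted there but tests little. The exclusion and inclusion paths of an event mostly list the same intensities with their roles swapped. The share of shifts above 0 ran from 53.7% to 63.6% over 10 alternatives, beside 57.1%.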
